A study of Bos taurus with 10 samples.

Results

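Oxygen binding and iron storage genes were described in muscle of 10 Hanwoo cattle through MB, HBA, HBB, FTH1, FTL and TFRC. A probe set, the group of short probes that reads 1 transcript, was taken as a member if the platform annotation gave it exactly 1 gene symbol and that symbol was among these 6. This found 9 probe sets of 24016 outside the array's controls, and 6 of 9155 genes with a symbol. HBB had 4 probe sets and each of the other genes had 1. The rule used no measured values, but the 6 genes were chosen with earlier results of these data known.

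The samples came from longissimus dorsi, the loin muscle along the spine, of a native Korean beef breed, and they form 1 group without a treatment or a control. The label of 1 of the 10 samples gives an age of about 2 years. Its stated aim was to correlate expression profiles with meat traits of these cattle. No trait value and no second group was used here, so levels, spread between animals and covariation are given. That each sample is a separate animal follows only from the numbering and the stated design, and the p-values depend on it. Values are log2(signal + 16) of the deposited intensities after quantile normalization, a step that gives every array the same distribution, and are called levels. A gene was tested if its mean level was above 6.98, the median over all probe sets outside the controls. Of the 6 members 5 passed this filter, and HBB did not.

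Oxygen is bound by heme iron in hemoglobin, carried by red cells, and in myoglobin, which holds oxygen inside muscle fibres and gives meat its red colour. Cells take up iron from transferrin in plasma through the transferrin receptor, and keep the surplus in ferritin, a shell of heavy and light chains. When iron is scarce, iron regulatory proteins bind ferritin and transferrin receptor transcripts, which blocks ferritin translation and stabilises the receptor's transcript.

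Markers of skeletal muscle fitted the label, with 12 of 12 measured markers above the filter and a median level of 15.68. The arrays differed in the signal of their bright probe sets. On the deposited scale the mean log2 signal of the 100 brightest probe sets ran from 14.64 to 15.76, and the hybridization controls, RNAs added in a fixed amount, ran from 11.18 to 13.14. Animals 1, 6 and 10 were the 3 highest on both measures. Poly(A) RNAs spiked into each sample were read near both ends, and the log2 gap between 3' and 5' probes, here the spike-in gap, grows where copying was incomplete. The spike-in gap was 2.67 in animal 5, while no other animal was outside 0.778 to 1.06.

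MB, the gene of myoglobin, gave a signal near the top of the array in every animal. Its deposited intensity was lowest at 29939 in animal 2, with a median of 46537 and a maximum of 82646 in animal 10. In each array it ranked between the 15th and the 25th of 24016 probe sets. After quantile normalization the level was 15.60 ± 0.04 (SD, n = 10), from 15.53 in animal 8 through a median of 15.61 to 15.67 in animal 10. This spread was smaller than that of nearly all tested genes, lying at the 0.0319 percentile of their SDs. Genes this bright differed less after this step, with a median SD of 0.12 over the 47 tested genes with a mean above 15, against 0.36 over all 6271. The SD of MB, 0.0418, was small even among these 47, whose 5th percentile was 0.0435. In bulk muscle, fewer cells of a type and less RNA per cell cannot be told apart.

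The spread of MB depended on the scaling. With the deposited scaling its SD was 0.50, against a median of 0.47 over the same 47 bright genes. MB then followed the array's bright end, the mean of its 100 brightest probe sets (r = 0.983 and rho = 0.915, permutation p = 5e-05 and 0.00047, adjusted p = 0.00015 for r over 3 genes, n = 10), with r = 0.968 without the 2 farthest animals. The ranks of MB put it among these 100, so part of its r with their mean is built in. It also followed the hybridization controls (r = 0.951 and rho = 0.891, permutation p = 2e-05 and 0.00102, adjusted p = 0.00015 for r over 10 relations), with r = 0.915 without the 2 farthest. After quantile normalization its r with these controls was 0.314 (rho = 0.242, permutation p = 0.38 for r and 0.5 for rho, adjusted p = 0.543 for r), and 0.689 without the 2 farthest animals.

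FTH1, the ferritin heavy chain with the site that oxidises iron, was the other member near the top of the range. Its deposited intensity ran from 23594 in animal 2 through a median of 41143 to 61236 in animal 10, and it ranked between the 30th and the 72nd. The normalized level was 15.26 ± 0.15 (SD, n = 10), from 15.01 in animal 2 through a median of 15.27 to 15.45 in animal 5. Its SD was 0.46 with the deposited scaling. FTH1 followed the hybridization controls with that scaling (r = 0.980 and rho = 0.952, permutation p = 3e-05 and 0.00011, adjusted p = 0.00015 for r, n = 10), with r = 0.975 without the 2 farthest. After quantile normalization r was 0.627 (rho = 0.578, permutation p = 0.0561 for r and 0.0852 for rho, adjusted p = 0.333 for r) and 0.715 without the 2 farthest. With any 1 animal left out it lay between 0.439 and 0.820, with adjusted p from 0.0791 to 0.555 in permutation tests. Over the 7 animals without animals 1, 6 and 10, a subset chosen after the data were seen, it was 0.920 (exact permutation test, adjusted p = 0.0337).

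MB and FTH1 varied together with the deposited scaling, while after quantile normalization no covariation of them passed the test. With the deposited scaling r was 0.960 (rho = 0.903, permutation p = 3e-05 for r and 0.00067 for rho, adjusted p = 3e-04 for r over 10 pairs, n = 10), and 0.972 without animals 10 and 1, the farthest from the median of MB. After quantile normalization r was 0.174 (rho = -0.081, permutation p = 0.628 for r and 0.828 for rho, adjusted p = 0.821 for r), and -0.353 without animals 8 and 10. On the deposited scale MB had r = 0.983 to the averaged signal of the top 100 probe sets and FTH1 had r = 0.917 (rho = 0.733, permutation p = 0.00024 for r and 0.0199 for rho, adjusted p = 0.00036 for r, n = 10, and 0.891 without the 2 farthest). Both genes were among these 100 probe sets, so part of each r is built in and these p-values are not independent evidence. The part of array brightness in their joint variation was not tested.

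**Figure D1:**
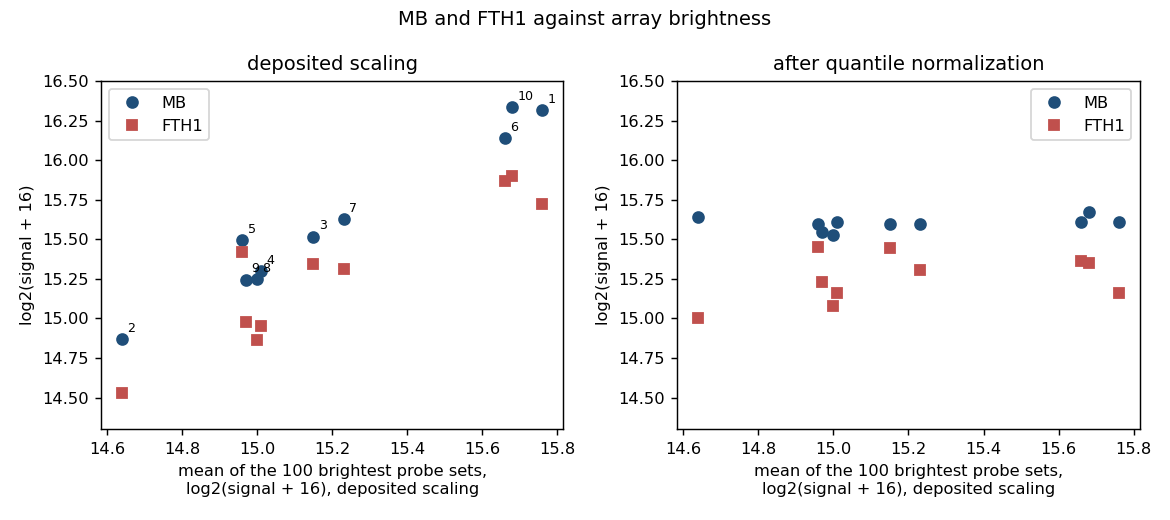
MB (circles, numbered by animal) and FTH1 (squares) in log2(signal + 16) against the mean of the 100 brightest probe sets of the same array, with the deposited scaling on the left and after quantile normalization on the right, 1 point per animal. Both genes are among the 100 probe sets averaged. With the deposited scaling both rise with brightness, with MB from animal 2 at the lower left to animals 1, 6 and 10 at the upper right. After normalization MB lies between 15.53 and 15.67.

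FTL, the ferritin light chain, which promotes growth of the iron core, was high in 9 animals and lower in animal 5. Deposited intensities were 2811 in animal 5, 6985 in animal 4, the next lowest, and 13872 in animal 1, the highest, with a median of 8153. The level was 12.90 ± 0.56 (SD, n = 10), with 11.47 in animal 5, 12.78 in animal 4, a median of 13.00 and 13.63 in animal 1. Animal 5 did not overlap the others, and without it the SD was 0.25 and the mean 13.05. The scaling hardly mattered here, with an SD of 0.57 for the deposited values.

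Animal 5 also had the wide spike-in gap, and the array's quality and the animal cannot be told apart. The r of FTL with the spike-in gap was -0.853 (rho = 0.0667, permutation p = 0.0916 for r and 0.865 for rho, adjusted p = 0.333 for r, n = 10). Leaving out the 2 most extreme animals gave 0.465, and 0.504 without animal 5 alone, so the negative r rests on that animal.

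TFRC, the transferrin receptor through which cells take up iron, varied most of the tested members. Its deposited intensity was 144, 149 and 149 in animals 6, 5 and 1. The other 7 animals lay higher, at 241 in animal 2, 317 in animal 10, 523 in animal 3, 571 in animal 8, 597 in animal 9, 819 in animal 7 and 858 in animal 4. From lowest to highest this is a 5.95-fold range. The level was 8.53 ± 0.997 (SD, n = 10), from 7.19 in animal 6 through a median of 8.75 to 9.76 in animal 4. Only 88 of the 6271 tested genes had a larger SD. The SD was between 0.93 and 1.06 with any 1 animal left out, 0.98 with the deposited scaling, and 0.87 without animals 1, 6 and 10.

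TFRC tended to be low where the hybridization controls were high, but the relation did not pass the test. Animals 1, 10, 6 and 5 held the 4 highest control levels, at 13.14, 13.11, 13.00 and 12.65. Animals 1, 6 and 5 were the lowest in TFRC, but animal 10 was near its mean at 8.405. Animal 2, with the lowest control level of 11.18, had a TFRC level of 8.02. The r was -0.551 (rho = -0.612, permutation p = 0.1 for r and 0.0675 for rho, adjusted p = 0.333 for r, n = 10), with -0.770 without the 2 farthest animals and -0.133 without animals 1, 6 and 10. With the spike-in gap r was -0.407 (rho = -0.370, permutation p = 0.297 for r and 0.294 for rho, adjusted p = 0.543 for r), and -0.126 without the 2 farthest. Over all 10 relations of a tested member with an array measure, 0 passed after quantile normalization and 2 passed with the deposited scaling, those of MB and FTH1 with the hybridization controls.

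The hemoglobin genes gave signals no brighter than a middling probe set. HBA, the alpha chain, had deposited intensities from 58.4 in animal 3 through a median of 110.3 to 162.8 in animal 1. The level was 6.99 ± 0.36 (SD, n = 10), which is at the filter's limit, and 7 of 10 animals were above it. It ranged from 6.28 in animal 3 to 7.41 in animal 1, and its SD lay at the 48.3 percentile of tested genes.

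HBB, the beta chain, had 4 probe sets, and all had mean levels below the filter. The brightest stood at 5.70 ± 0.54 (SD, n = 10), between 4.52 in animal 6 and 6.47 in animal 10. The next stood at 5.55 ± 0.79 and reached 6.98 in animal 8, the only value of the 4 probe sets above the filter's limit. The third stood at 5.29 ± 0.62 and the dimmest at 4.76 ± 0.50. Their means lay between the 4.98 and the 26.6 percentile of all probe sets.

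The HBB probe sets did not rank the animals alike. Over the 6 pairs of them r ran from -0.265 to 0.527 with a median of -0.01, given as a description over the same 10 arrays. The brightest and the dimmest each share their source sequence with a probe set annotated to HBG, a globin of early life, so those signals may be shared between near-identical globins. Of 17 red cell markers 11 were measured and 3 were tested, HBA, TFRC and GYPC, and GYPC, glycophorin C of the red cell membrane, was bright at 12.82 ± 0.53 (SD, n = 10). The mean levels of the 8 markers that were not tested, HBB among them, lay between 4.52 for SLC4A1, the anion exchanger of the red cell membrane, and 6.66 for ANK1, an ankyrin. No marker of this list was listed at 0.

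**Figure D2:**
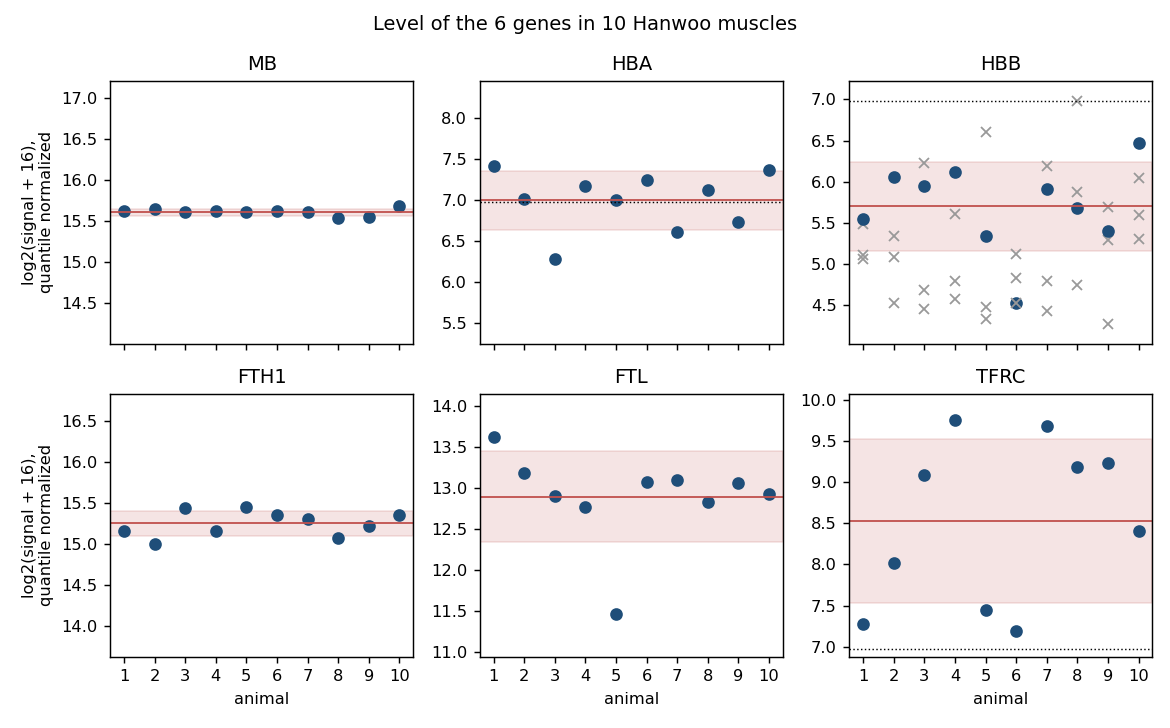
Levels of the 6 genes, log2(signal + 16) after quantile normalization, by animal; circles are the brightest probe set of a gene, crosses the other HBB probe sets, the line and band the mean ± SD over 10 animals, and the dotted line the filter's limit of 6.98. All panels span the same number of log2 units, so MB is nearly flat, FTL drops to 11.47 in animal 5, and TFRC runs from 7.19 to 9.76.

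Pairs of the 5 tested members were compared to ask whether oxygen carriers, ferritin chains and the receptor vary together. After quantile normalization 0 of 10 pairs passed the adjustment and 0 had an unadjusted permutation p below 0.05, with 5 of 10 r above 0. The r closest to -1 was between HBA and TFRC (r = -0.510 and rho = -0.455, permutation p = 0.132 and 0.193, adjusted p = 0.734 for r, n = 10), and it was -0.362 without the 2 farthest animals.

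No covariation of the 2 ferritin chains passed the test, which with 10 animals does not show that there is none. With the deposited scaling their r was 0.0882, and the values that follow are after quantile normalization. Their r was -0.488 (rho = -0.371, permutation p = 0.147 for r and 0.29 for rho, adjusted p = 0.734 for r, n = 10), -0.100 without the 2 farthest animals and -0.199 without animal 5, which had the highest FTH1 and the lowest FTL. Iron regulatory proteins act on translation for ferritin and on transcript stability for TFRC. An r of transcript levels is not a test of that control. FTL and TFRC had r = 0.0808 (rho = -0.321, permutation p = 0.872 for r and 0.372 for rho, adjusted p = 0.872 for r). That value changed to -0.483 without the 2 farthest animals and to -0.666 without animal 5, where the exact permutation test over 9 animals gave an adjusted p of 0.382. FTH1 and TFRC had r = -0.154 (rho = -0.261, permutation p = 0.659 for r and 0.461 for rho, adjusted p = 0.821 for r), and -0.152 without the 2 farthest.

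Each tested member was then set against all other tested genes in limma, with its level in SD units as covariate. For FTL, 482 of 6270 genes rose and 211 fell past the threshold of an adjusted p of 0.05, which is 11.1% in all. EXOSC4, a subunit of the RNA exosome, had r = 0.958 and a slope of 0.46 log2 per SD of FTL (SE 0.07, adjusted p = 0.0101). MRPL41, a mitochondrial ribosomal protein gene, had r = 0.956, RNASEK 0.953, the proteasome ATPase gene PSMC4 0.952 and the complex I gene NDUFA11 0.949. NDUFA11 had the steepest slope of these 5, at 0.67 (limma adjusted p = 0.0101). COX6A2, the muscle form of a cytochrome c oxidase subunit, rose by 0.70 (SE 0.09, limma adjusted p = 0.0101), and BLOC1S1, FIS1, MTLN and NDUFB9 rose by 0.59, 0.41, 0.45 and 0.37.

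The genes with the lowest r to FTL were RNF11 (-0.959), LMBR1 (-0.934) and PLOD1 (-0.931), and AMBRA1, UBA2, PRKAR2A, LOC100301250 and MGRN1 followed with -0.930 to -0.923. All 8 fell, with limma adjusted p from 0.0101 to 0.036. RNF11, a ubiquitin ligase gene, fell by 0.38 per SD, and PRKAR2A, a regulatory subunit of protein kinase A, by 0.52.

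These counts rest on animal 5. Without it 0 genes passed in limma, with 307 at an unadjusted p below 0.05, and with any other animal left out between 545 and 757 passed. With the spike-in gap as a covariate the count was also 0, with 371 at an unadjusted p below 0.05. Without animal 5 the r of EXOSC4 with FTL was 0.749, that of COX6A2 0.647 and that of RNF11 -0.750.

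**Figure D3:**
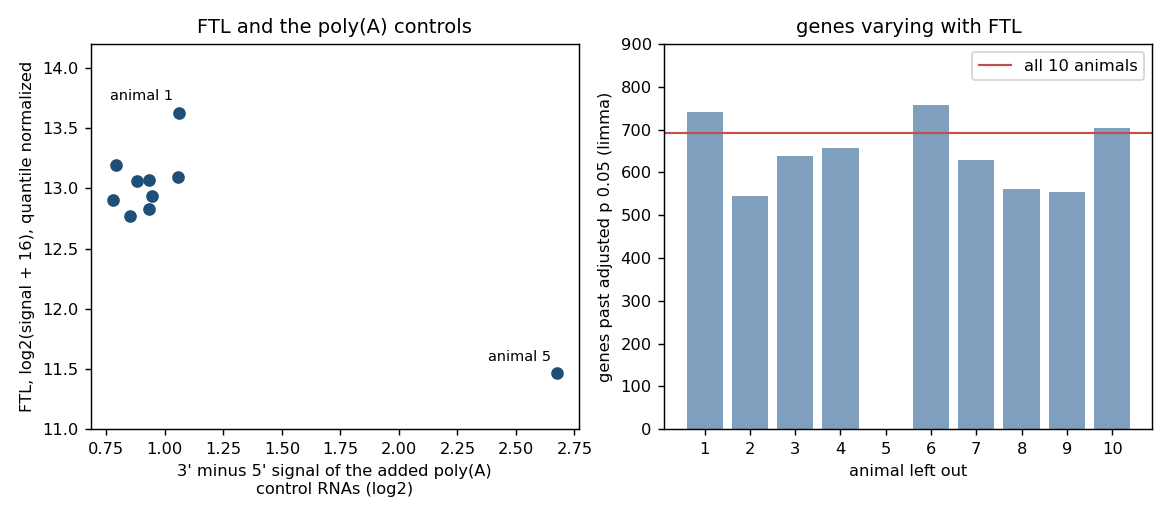
Left, FTL level against the spike-in gap, the log2 difference of 3' and 5' signal of spiked poly(A) RNAs, 1 point per animal; animal 5 lies alone at 2.67 and 11.47. Right, bars give the number of genes past an adjusted p of 0.05 in limma with FTL as covariate when the animal on the axis is left out, and the line marks 693 with all 10 animals; the bar for animal 5 is at 0.

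For TFRC, 1 of 6270 genes rose and 0 fell (0.0159%), with 353 at an unadjusted p below 0.05. It was DLK1, a membrane protein of the Notch ligand type made by preadipocytes and developing muscle, with r = 0.962, rho = 0.903 and a slope of 0.64 log2 per SD of TFRC (SE 0.09, limma adjusted p = 0.0339). DLK1 was lowest in animals 6, 5 and 1, at 6.36, 6.70 and 6.73, and highest in animal 9 at 8.17, with animals 4, 3 and 7 at 8.07, 8.05 and 8.01. The 3 animals lowest in TFRC were therefore the 3 lowest in DLK1. The brightest DLK1 probe set had a mean of 7.44, and the other, at 5.82, had r = 0.244 with TFRC. With any 1 animal left out the slope stayed between 0.56 and 0.68, while the limma adjusted p lay between 0.0639 and 0.144, past the threshold in none. It was 0.123 with the deposited scaling and 0.375 with the hybridization controls as a covariate.

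The other genes most like TFRC were INPP1, MOSPD3, LAPTM4B and NTAQ1, with r of 0.932, 0.907, 0.907 and 0.883 over the 10 animals. CHST14, H2BC19 and DEXI had the lowest r, at -0.913, -0.910 and -0.875. Of these 7, H2BC19, a histone H2B gene, came closest to the threshold (slope -0.57, limma adjusted p = 0.257).

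**Figure D4:**
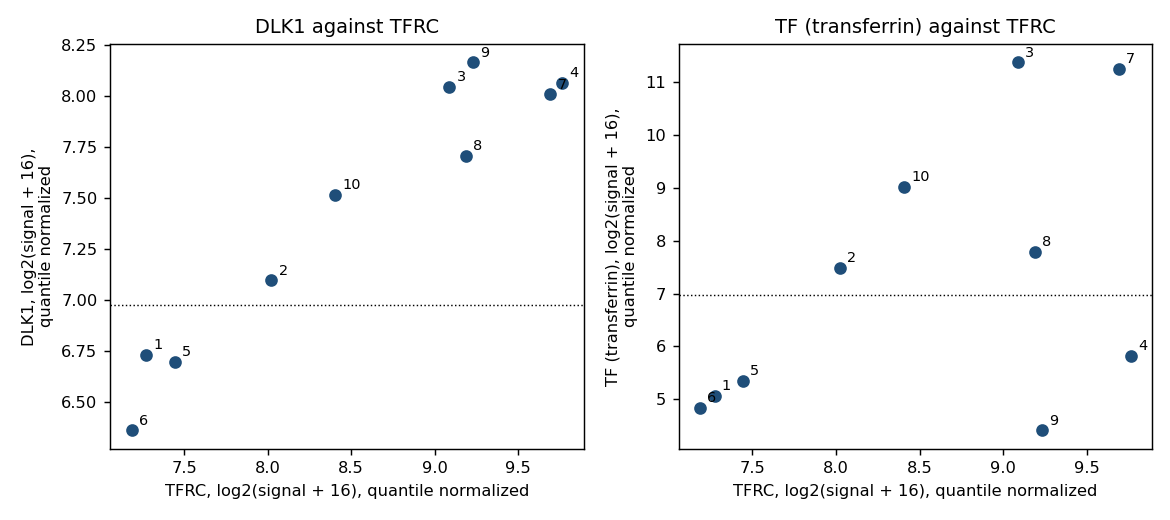
DLK1 (left) and transferrin, TF (right), against TFRC, all in log2(signal + 16) after quantile normalization, 1 numbered point per animal; the dotted line is the filter's limit of 6.98. DLK1 rises from animals 6, 5 and 1 to animals 3, 4, 7 and 9, while TF is highest in animals 3 and 7 and lies at 4.41 in animal 9 and 5.82 in animal 4, which are high in TFRC.

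For MB, HBA and FTH1, 0 of 6270 genes passed in limma (0% each), and 205, 396 and 424 had an unadjusted p below 0.05. The genes most like MB were TTI2, H2AC25, ITPA, EMC7 and DDRGK1, with r from 0.904 to 0.819, and the lowest r were those of HSPG2, the basement membrane proteoglycan perlecan, at -0.861, TRAFD1 at -0.851 and NXN at -0.832. They follow an MB level that spans only 0.15 log2. With the deposited scaling, where 29 genes passed, TTI2 had r = 0.318 and HSPG2 -0.426 with MB.

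The genes most like HBA were PYCR3, an enzyme gene of proline synthesis, at r = 0.918, and FAM78A, ARIH1, LHB and OTUD4, at 0.902 to 0.890. LMAN2, a cargo receptor of the secretory pathway, had -0.921, the matrix proteoglycan gene VCAN -0.888 and the protease inhibitor gene SERPINE2 -0.880. The smallest limma adjusted p was 0.146, shared by FAM78A and LHB. The mean level of LHB was 6.98, at the filter's limit as that of HBA was. For FTH1 the highest r were those of AFF1 (0.900), SPTLC2 (0.899), CHAC2 (0.878), MRPS35 (0.873) and LTA4H (0.871), and the lowest those of RXRB (-0.921), PDXP (-0.906) and GARS1 (-0.901). All 8 had limma adjusted p = 0.712.

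Other genes of iron, heme and oxygen handling were taken from 4 lists, of which 50 genes were measured and 45 tested. With FTL as covariate 2 rose and 2 fell of 45 in limma, a share below the 11.1% over all genes. FECH, the ferrochelatase that puts iron into heme, rose by 0.34 per SD (adjusted p = 0.0318) and BLVRB, a biliverdin reductase, by 0.52 (adjusted p = 0.0367). SLC11A2, the iron transporter DMT1, fell by 0.37 (adjusted p = 0.0266) and GLRX5, of iron-sulfur cluster assembly, fell by 0.36 (adjusted p = 0.0377). Animal 5 was lowest in FECH and BLVRB and highest in SLC11A2 and GLRX5, and without it the slopes were 0.08, 0.05, -0.11 and -0.21 (limma adjusted p up to 1). The calls also depended on the processing. Without a filter none of them held (limma adjusted p from 0.0617 to 0.0798). With the deposited scaling FECH and SLC11A2 lost theirs (limma adjusted p = 0.0585 and 0.0774). With arrays centred on their median FECH, BLVRB and GLRX5 did (limma adjusted p = 0.0985, 0.061 and 0.0781). With TFRC, MB, HBA and FTH1 as covariates 0 of the 45 passed. ALAS1, the rate-limiting enzyme of heme synthesis outside red cells, had the smallest adjusted p with TFRC (slope 0.48, SE 0.11, limma adjusted p = 0.675, r = 0.839).

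Iron uptake and export genes numbered 8 measured and 6 tested, with a median SD of 0.47 against 0.36 over all tested genes, and 6 of 6 SDs were above that median. The brightest were SCARA5, a ferritin receptor, at 10.93 ± 0.45 (SD, n = 10), STEAP3, a ferrireductase, at 9.22 ± 0.37 and the zinc and iron transporter SLC39A14 at 8.66 ± 0.49. TF, transferrin itself, had the largest SD at 2.60, with 11.37 and 11.25 in animals 3 and 7, 9.02 in animal 10 and at most 7.80 in the other 7. Its slope on TFRC was 1.25 (SE 0.64, limma adjusted p = 0.831), and animals 4 and 9, high in TFRC, had TF at 5.82 and 4.41. Among the tested genes SLC39A8 had the next largest SD, 0.52, while CP and TFR2, which did not pass the filter, had 1.45 and 0.56. TF also belongs to a list of plasma proteins made by the liver, of which 14 were measured. Of these 7 were highest in animal 3, among them TF itself, HP, APOA1, VTN and SERPINA1, and 4 in animal 7, among them FGG and C3. ALB and FETUB were highest in animal 1, and AHSG in animal 8. ALB stood at 11.15 ± 0.49 and AHSG at 10.08 ± 0.25 (SD, n = 10). How many of all genes were highest in animal 3 was not counted. The summed signal of the list ran from 2418 to 22290 over the animals. The part of that list in the level of TF was not tested.

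Iron sensing and intracellular iron genes had the lowest median SD of the 4 lists. They were also the brightest, with a median level of 11.20 against 7.28 for uptake and export, 9.25 for heme and 9.49 for oxygen genes. The SDs were not compared at equal level. All 13 measured genes were tested, the median SD was 0.30, and 4 of 13 SDs were above the median of all tested genes. PCBP1, an iron chaperone that loads ferritin, stood at 13.82 ± 0.40 (SD, n = 10), ISCU, the scaffold of iron-sulfur clusters, at 13.56 ± 0.16, and NCOA4, the receptor that sends ferritin to lysosomes, at 12.36 ± 0.23. ACO1, which doubles as iron regulatory protein, had 9.43 ± 0.19. The largest SDs were those of NUBP1 (1.05), FBXL5, which degrades an iron regulatory protein (0.58), and GLRX5 (0.45).

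Heme synthesis and breakdown genes had a median SD of 0.53 over 13 tested of 15 measured, and 10 of 13 SDs were above the median of all tested genes. UROD stood at 11.54 ± 0.27 (SD, n = 10), ALAD at 11.47 ± 0.50 and ALAS1 at 11.17 ± 0.57. HP, the plasma hemoglobin binder haptoglobin, had the largest SD, 2.44, and was highest in animal 3 at 11.73. HMOX1, the inducible heme oxygenase that frees iron from heme, had an SD of 0.89, from 9.28 in animal 3 to 12.40 in animal 6, and PPOX had 0.88.

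Oxygen sensing genes had a median SD of 0.47 over 13 tested of 14 measured, with 9 of 13 above the median of all tested genes. EGLN1, the oxygen-dependent hydroxylase that marks hypoxia-inducible factors for decay, stood at 14.25 ± 0.31 (SD, n = 10), the stress gene DDIT4 at 14.06 ± 0.78 and the mitophagy gene BNIP3 at 13.96 ± 0.41. DDIT4, VEGFA (0.74) and CYGB (0.65), the gene of cytoglobin, had the largest SDs. CYGB, another oxygen binding globin, lay between 6.12 in animal 10 and 8.44 in animal 6.

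**Figure D5:**
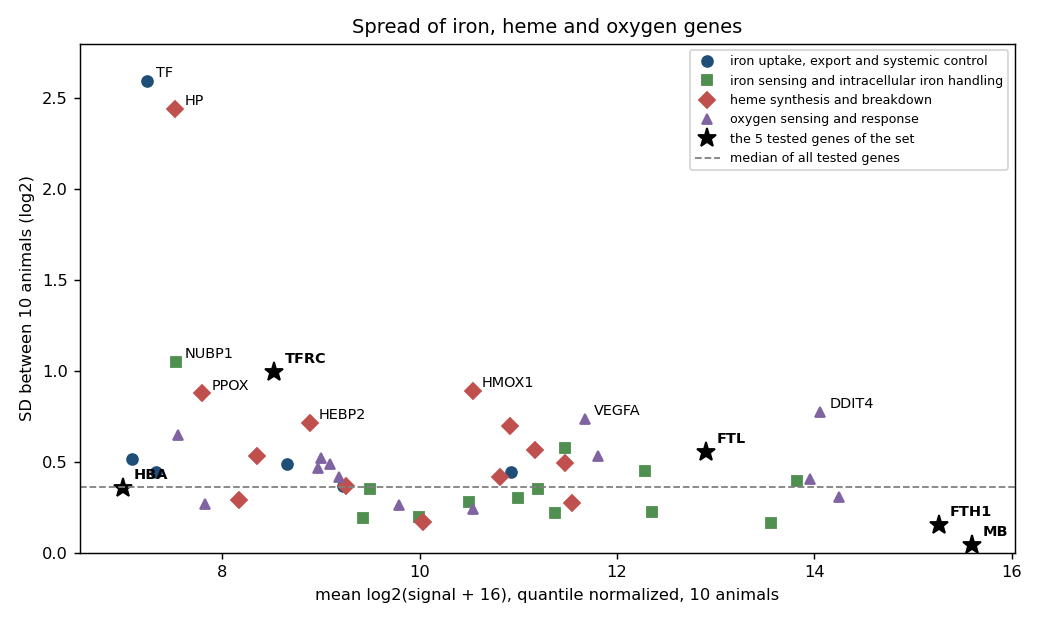
SD between the 10 animals against mean level for the 45 tested genes of the 4 iron, heme and oxygen lists (symbols by list) and for the 5 tested members (stars, bold names), with the median SD of all tested genes, 0.36, as a dashed line. TFRC and FTL lie above the line and FTH1 and MB below it at the bright end, while TF and HP have the largest SDs at 2.60 and 2.44.

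The members were also read from limma fits of all 6271 tested genes on 3 tissue scores, each the mean deviation of a marker list in SD units. With the respiratory chain score of 40 genes 242 genes passed (3.86%), among them 1 of the 5 tested members, FTL, with a slope of 0.47 per SD (SE 0.11, limma adjusted p = 0.0411). Animal 5 had the lowest score, -0.37, against -0.08 to 0.18 in the others. The list did not move as 1 in that animal. NDUFA2, COX6A2, COX6C and COX7C were lowest there, while NDUFS1, NDUFB10, SDHC and ATP5F1B were highest there. Of the 40 list genes, each fitted on the score without it, 7 rose past the threshold in limma, and 28 slopes were above 0. Without animal 5 the FTL slope was 0.06 (adjusted p = 0.869) and 0 genes passed, with 558 at an unadjusted p below 0.05. The limma call of FTL was also lost without animal 2, 3, 4 or 8, where the adjusted p was 0.0629, 0.0635, 0.0542 and 0.0612, with the deposited scaling (adjusted p = 0.0782) and with the hybridization controls as a covariate (adjusted p = 0.0563). MB, an oxygen store next to the respiratory chain in oxidative fibres, had a slope of -0.004 (SE 0.06, limma adjusted p = 0.98). The MB slope was 0.32 with the deposited scaling (limma adjusted p = 0.226) and 0.16 with arrays centred on their median (limma adjusted p = 0.606). No direction was established for MB with any of these scalings. TFRC had a slope of 0.34 (SE 0.27, limma adjusted p = 0.522).

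With the macrophage score of 7 genes 28 genes passed (0.446%) and 0 of the 5 members. FTL had a slope of 0.26 (SE 0.15, limma adjusted p = 0.475), which was -0.04 without animal 5, TFRC had 0.13 (SE 0.29) and FTH1 0.01 (SE 0.08). The adipocyte score of 11 genes called 0 genes (0%), with 361 at an unadjusted p below 0.05. The slope of TFRC on it was 0.45 (SE 0.26, limma adjusted p = 0.909), and those of the other 4 members lay between -0.09 and 0.14.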

How the data were processed

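The authors deposited 1 linear intensity per probe set and array of an Affymetrix bovine array; per the labels' protocols, RNA was extracted with Trizol and poly(A) RNA purified on an oligo(dT) resin. The sources used here do not name the summary software. The deposited intensities share a scaling, since the mean without the lowest and highest 2% was 500.177 to 500.203 on every array. Depth has no meaning for arrays, and their number, 10, limits the precision.

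A pseudocount of 16 was added, log2 taken and quantile normalization applied to 24016 probe sets without the 112 controls, because array medians spanned 0.24. The brightest probe set stood for a gene. Fits used limma 3.58.1 (R 4.3.3), Benjamini-Hochberg adjusted over all genes tested, and correlations with two-sided permutation tests of 100000 resamples, enumerated for 9 or fewer animals. The scripts were tested on simulated data. Named were the members, the 5 genes with the highest and 3 with the lowest r to each, up to 5 more per direction past the test, and from each pathway list the 3 brightest, the 3 with the largest SD and those past a test; ACO1, ALAS1, SLC4A1, ANK1, GYPC, TFR2, CP, HPX and the plasma proteins were chosen after their values were seen. Members and lists were chosen with earlier results of these data known. No coordinates or sequences were used here. All 6 symbols are current in RefSeq's table for ARS-UCD2.0.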

Additional observations from a re-analysis of the deposited data

Results flagged for a closer look

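The FTL level in animal 5 was 11.47, against 12.78 in the next lowest animal. The gap was 0.606 of the whole range of the 10 values, above the limit of Dixon's test for 10 values. It was 1 of 9 member probe sets checked in this way, and chance alone marks about 1 group in 20. The same animal had the widest spike-in gap. Its part in the FTL level was not tested apart from the animal.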

How the results depend on the processing

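MB and FTH1 sit at the top of the signal range, and their SDs changed with the scaling. HBA and HBB sit at or below the middle, where signal limits any reading. No paired analysis was possible because the samples form 1 group. The covariate of the hybridization controls and the removal of animals 1, 6 and 10 were chosen after seeing the data. The cause of a change was not tested. Over all settings a limma count of 0 came with 73 to 862 genes at an unadjusted p below 0.05. For single genes and single relations, 56 of 525 values under an alternative lost a call, most often that of DLK1 with TFRC, and 7 gained one, over 10 results in all. A further 18 slopes and correlations, given above only as ranges or counts, were kept apart from the values below after the alternatives had been seen: 38 of their 329 alternative values changed sign, over 14 of them, and 0 gained or lost a call.

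With the deposited scaling the SD of MB was 0.50 and that of FTH1 0.46, 1 member pair and 2 relations with array measures passed, the r of FTH1 and FTL was 0.0882 and the slope of MB on the respiratory chain score 0.32. Limma counts were 29 genes for MB, 19 for FTH1, 0 for TFRC, 17 for the respiratory chain score, with 0 members, and 2 for the adipocyte score. With arrays centred on their median the SDs were 0.42 and 0.39, 1 pair and 2 array relations passed, and the MB slope was 0.16. The counts were 17 for MB, 369 for FTL, 0 for TFRC, 1 for the respiratory chain score, with 0 members, and 8 for the macrophage score.

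A pseudocount of 64 gave 0 genes for TFRC and 4 for the adipocyte score. Averaging the probe sets of each gene gave 0 for TFRC, 0 genes and 0 members for the respiratory chain score, 17 for the macrophage score and 1 for the adipocyte score. Without a filter the counts were 277 for FTL, 0 for TFRC, 4 for the respiratory chain score, with 0 members, and 0 for the macrophage score. A filter at the 75th percentile gave 418 and 0 for these 2 scores, and left HBA and TFRC untested.

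With the spike-in gap as a covariate the counts were 0 for FTL, TFRC, the respiratory chain score, with 0 members, and the macrophage score. The r of FTH1 and TFRC became 0.0393 and that of FTL and TFRC -0.560, the slope of TFRC on the respiratory chain score -0.015, and those of FTL and TFRC on the macrophage score -0.0084 and -0.14. Spearman's rho was -0.081 for MB and FTH1 and -0.321 for FTL and TFRC. With the hybridization controls as a covariate r was -0.032 for MB and FTH1 and 0.295 for FTH1 and TFRC, the slope of FTH1 on the macrophage score was -0.0012, and the counts were 0 for TFRC and 108, with 0 members, for the respiratory chain score. Without animals 1, 6 and 10 they were 2 for TFRC, 393 for the respiratory chain, 18 for the macrophage and 2 for the adipocyte score, 1 array relation passed, the r of MB with the hybridization controls was -0.188, and the FTH1 slope on the macrophage score was -0.020.

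With each animal left out in turn, the counts ran from 0 to 757 for FTL, 0 to 1 for HBA, 0 to 420 for the respiratory chain score (0 to 1 members), 0 to 18 for the macrophage score and 0 to 1 for the adipocyte score, and the count for TFRC was 0 each time. The r of MB and FTH1 ran from -0.115 to 0.473, of FTH1 and TFRC from -0.320 to 0.0244, of FTL and TFRC from -0.666 to 0.358 and of FTL and the spike-in gap from -0.952 to 0.504. Slopes on the macrophage score ran from -0.023 to 0.069 for FTH1, -0.040 to 0.34 for FTL and -0.12 to 0.64 for TFRC, and that of MB on the respiratory chain score from -0.0098 to 0.00091. The slope of FTL on that score ran from 0.057 to 0.51.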

Other observations

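2 further plasma carriers of heme and metal, HPX and CP, were also highest in animal 3, as were 7 of 14 measured plasma proteins made by the liver. Of the rest of these 14, 4 were highest in animal 7, 2 in animal 1 and 1 in animal 8. HPX, the heme binder hemopexin, reached 9.50 there with a mean of 6.15 ± 1.70 (SD, n = 10), and CP, the copper oxidase ceruloplasmin that helps iron bind transferrin, reached 9.39 with a mean of 6.92 ± 1.45. Neither passed the filter on low levels, so neither was tested.

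Probe sets of other globins and of a globin chaperone did not pass the filter. The embryonic globin HBE1 stood at 5.99, 3 HBG probe sets at 5.94, 5.84 and 4.83, HBM at 6.19 and AHSP, the chaperone of free alpha globin, at 6.52.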
